A study of Mus musculus with 10 samples.

Results

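Transcripts of 10 mouse genes that encode the core proteins of mitochondrial fusion, fission and mitophagy were followed in kidneys after ischaemia-reperfusion injury. They are the fusion genes Opa1, Mfn1 and Mfn2, the fission genes Dnm1l, Fis1 and Mff, and the mitophagy genes Pink1, Bnip3, Bnip3l and Fundc1. The set was drawn up by gene name but with earlier results of these data known, and the p-values below do not cover that choice. All 10 symbols were found among the 55359 genes of the deposited table. Kidney RNA came from male mice. In 5 libraries (IRI) the mice had undergone 30 min of ischaemia and 24 h of reperfusion, and in 5 libraries (sham) they had undergone sham surgery. The labels give no strain, age or diet, although the series as a whole concerns dietary methionine. No time of sampling after sham surgery was given, and whether each library came from its own mouse is not stated outright. The p-values below therefore cover only how much these libraries vary, which may be in part technical.

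Mitochondria form a network that is remodelled by large GTPases. The mitofusins MFN1 and MFN2 join outer membranes, OPA1 joins inner membranes and holds cristae in shape, and DRP1, the product of Dnm1l, is recruited to the outer membrane by adaptors such as MFF and constricts it. FIS1 is a tail-anchored outer membrane protein that also takes part in fission and mitophagy. Damaged mitochondria are removed by autophagy, either after the kinase PINK1 accumulates on the outer membrane and starts the tagging of its proteins with ubiquitin, or through the receptors BNIP3, NIX (the product of Bnip3l) and FUNDC1, which bind ATG8 proteins of the autophagosome directly. Proximal tubule cells of the kidney are rich in mitochondria and depend on them for transport work. Bnip3 is a known target of hypoxia-inducible factors.

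In the coordinates of the deposited table (GRCm39), Pink1 lies on chromosome 4 from 138040720 to 138053618, Bnip3 on chromosome 7 from 138492565 to 138511248 and Bnip3l on chromosome 14 from 67222688 to 67246326, all on the minus strand. Fundc1 is on the minus strand of chromosome X from 17422803 to 17438564. Opa1 (29398152 to 29473702, plus strand) and Dnm1l (16130094 to 16176823, minus strand) are both on chromosome 16. Mfn1 is on chromosome 3 from 32583614 to 32633388 and Mfn2 on chromosome 4 from 147958056 to 147989161. Fis1 is on chromosome 5 from 136982129 to 136995088 and Mff on chromosome 1 from 82702611 to 82730115.

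Pink1 and Bnip3 are the genes of the set with the largest differences below, and their promoter windows are shown for that reason. Each window runs from 250 bases before the RefSeq transcript start to 50 bases after it, on the minus strand of build GRCm38.p6, at chr4:138326247-138326546 for Pink1 and chr7:138909457-138909756 for Bnip3. Capitals mark the core motif bound by hypoxia-inducible factors, ACGTG or GCGTG, read on either strand.
Pink1: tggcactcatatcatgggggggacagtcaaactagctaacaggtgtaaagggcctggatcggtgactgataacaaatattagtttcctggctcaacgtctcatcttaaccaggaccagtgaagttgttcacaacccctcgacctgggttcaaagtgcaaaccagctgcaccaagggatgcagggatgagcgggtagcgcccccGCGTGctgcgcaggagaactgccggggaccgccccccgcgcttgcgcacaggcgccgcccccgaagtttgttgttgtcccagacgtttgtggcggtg
Bnip3: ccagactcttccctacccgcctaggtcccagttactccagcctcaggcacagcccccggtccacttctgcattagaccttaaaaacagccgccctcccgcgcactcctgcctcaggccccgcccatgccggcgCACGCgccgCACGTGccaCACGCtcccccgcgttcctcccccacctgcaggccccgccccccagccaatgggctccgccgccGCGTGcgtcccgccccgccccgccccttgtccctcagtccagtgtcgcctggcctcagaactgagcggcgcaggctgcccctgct

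The Bnip3 window held 5 matches, 2 of which overlap in a single run of 6 bases, and the Pink1 window held 1. RefSeq windows were matched by symbol for 9 of the 10 genes (14 windows). The hypoxia core was present for 5 of these 9 genes, in 8 of their 14 windows and in 43.8% of all 32851 windows of this length. The motif of nuclear respiratory factor 1, searched on either strand, was present for 3 of 9 genes, as GCGCTTGCGC in Pink1, GCGCACGCGC in Bnip3 and GCGCATGCGC in Opa1, in 3 of the 14 windows and in 4.6% of all windows. The site of oestrogen-related receptors, TCAAGGTCA on either strand, was found for 0 of 9 genes, in 0 of the 14 windows and in 0.423% of all windows. Such matches describe letters only and show no binding.

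Library totals were 13147899 to 17307039 counts in IRI and 13199234 to 18603272 counts in sham, and the 10 genes had 315 to 4844 counts in each library. Of 13324 genes tested by edgeR, 34.5% were higher and 32.4% lower in IRI at an adjusted p under 0.05, so a call by itself sets no gene apart. Fold changes were scaled by TMM factors, which were 0.998 to 1.14 in IRI and 0.895 to 0.941 in sham. The deposited FPKM (fragments per unit of exon length and of library size) is scaled by library totals instead, and with library totals the fold changes of all genes moved by a median of 0.25 on the log2 scale. The choice of scaling therefore matters for genes with small differences, and results are given under both where they part. IRI replicate 1 held 2.31% of its counts in mitochondrial ribosomal RNA, against 0.214% to 0.450% in the other IRI libraries and 0.230% to 0.267% in sham.

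Markers of cell types moved beside the 10 genes. All 10 proximal tubule markers were lower by edgeR, with a summed level of 144 to 887 FPKM in IRI and 2280 to 2660 FPKM in sham, and all 5 tubular injury markers were higher (18200 to 28800 FPKM in IRI and 395 to 437 FPKM in sham). None of these 15 was at 0 in any library. Of 5 neutrophil markers 4 passed the filter and were higher, with 19.6 to 102 FPKM for the 5 in IRI and 0.940 to 3.27 FPKM in sham, where S100a8, Retnlg and Cxcr2 were at 0 in some libraries. In sham, S100a8, Retnlg and Csf3r reached at most 0.88, 0.31 and 0.62 FPKM, and the injury markers Havcr1 and Krt20 at most 0.73 and 0.66 FPKM. These genes passed the filter of 1 FPKM only through the IRI libraries, so their calls as higher were nearly fixed in advance. Podocyte markers had 4 of 5 higher, endothelial markers 3 higher and 1 lower of 5, macrophage markers 1 higher and 1 lower of 4 tested, and fibroblast and pericyte markers 2 higher of 5. Thick ascending limb markers had 2 higher and 3 lower of 5, and distal tubule and collecting duct markers 2 higher and 5 lower of 9. Beside all these counts, 34.5% of all tested genes were higher and 32.4% lower, so the counts of the small mixed lists set them little apart. In whole kidney RNA, fewer cells of a type and less RNA per cell cannot be told apart, and the part of these cell types in the results on the 10 genes was not tested.

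All 10 genes passed the filter on low values. With TMM factors 9 of the 10 were called (66.9% of all tested genes): 8 were lower in IRI (32.4% of all tested genes), 1 was higher (34.5% of all tested genes) and 1 was not called. The lower genes were the 4 mitophagy genes, the 3 fusion genes and Fis1, the higher gene was Dnm1l, and Mff was not called. The median log2 fold change was -0.50 over the 10 genes, against 0.05 over all tested genes. It was -0.84 for the mitophagy genes, -0.39 for the fusion genes and 0.04 for the fission genes. With library totals, 5 of the 10 were lower (23.6% of all tested genes), 2 were higher (47.4% of all tested genes) and 3 were not called. On the deposited FPKM, the groups did not overlap for 5 of the 10 genes (55.3% of all tested genes), which were 3 lower genes (18.6% of all tested genes) and 2 higher genes (36.7% of all tested genes).

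**Figure D1:**
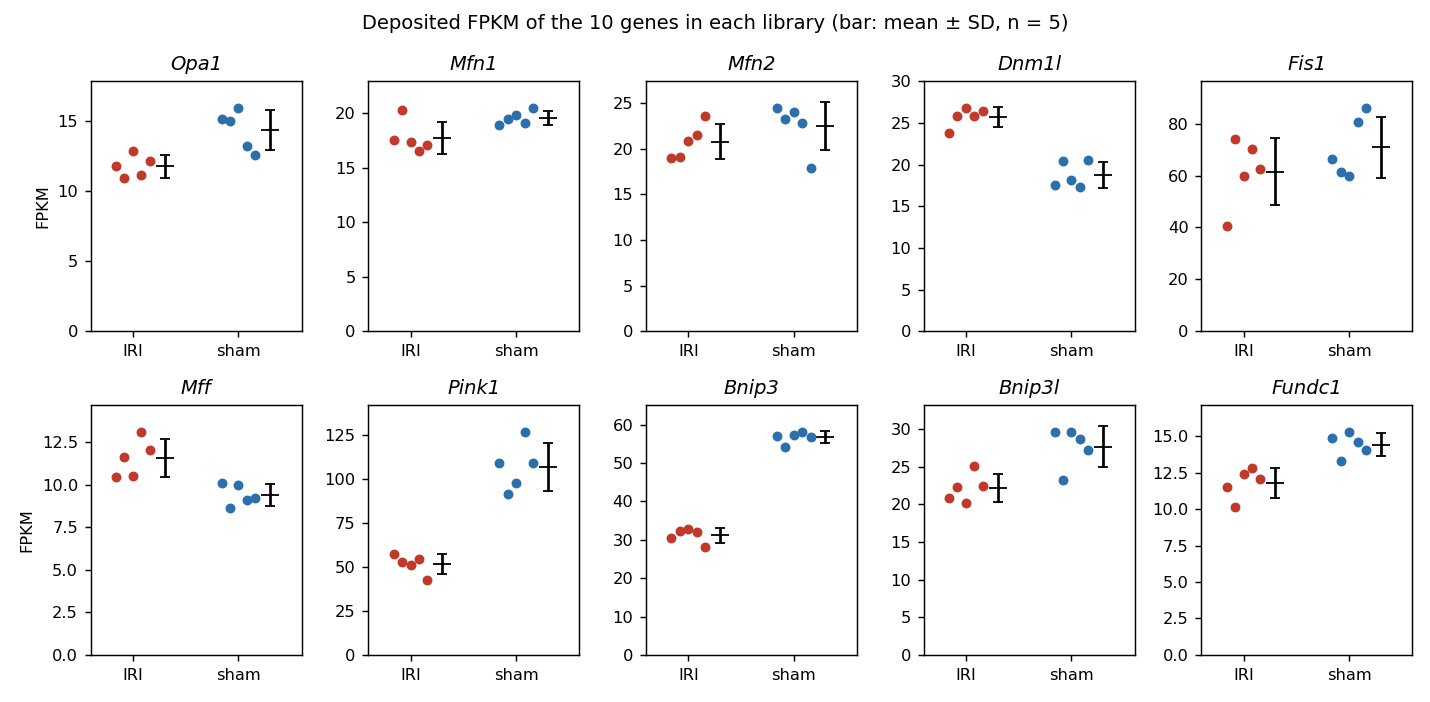
Deposited FPKM of each gene (vertical axes from 0) in 5 IRI and 5 sham libraries, with points for libraries and bars for mean ± SD. Pink1 and Bnip3 lie well below sham in every IRI library (means of 51.7 and 31.1 FPKM, against 107 and 56.7 FPKM), and Dnm1l and Mff lie above it.

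Among the mitophagy genes, Pink1, which encodes the kinase that senses depolarised mitochondria, showed the largest decrease. Its level was 57.4, 53.0, 51.0, 54.5 and 42.8 FPKM in IRI replicates 1 to 5, against 109, 91.3, 97.5, 127 and 109 FPKM in sham replicates 1 to 5. The highest IRI library lay far below the lowest sham library. Pink1 fell by 1.29 ± 0.13 on the log2 scale (± SE, edgeR adjusted p = 3.66e-06), to 0.408 of the sham level with TMM factors, and by 1.04 with library totals (edgeR adjusted p = 5.62e-06). Of all tested genes, 11.3% had a lower log2 fold change than Pink1.

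Bnip3, the hypoxia-inducible mitophagy receptor, varied least of the 10 genes among sham libraries. It had 30.58, 32.37, 32.78, 31.94 and 28.04 FPKM in IRI replicates 1 to 5, against 57.05, 54.18, 57.25, 58.20 and 56.89 FPKM in sham replicates 1 to 5. The groups did not overlap and stood far apart, with a coefficient of variation of 6.17% in IRI and 2.65% in sham. Bnip3 fell by 1.11 ± 0.08 on the log2 scale (edgeR adjusted p = 3.58e-07), to 0.462 of the sham level. Library totals put the fold change at -0.86 (edgeR adjusted p = 9.66e-07). Bnip3 has near-identical annotated copies (at least 95% identity over 300 bases or more), of which the one with the most counts had 53 in IRI and 3 in sham, against 5678 in IRI and 10209 in sham for Bnip3 itself.

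The remaining mitophagy receptors moved less. Bnip3l, the paralogue of Bnip3 that also clears mitochondria from maturing red cells, had 20.9, 22.3, 20.2, 25.1 and 22.5 FPKM in IRI replicates 1 to 5, against 29.5, 23.2, 29.7, 28.7 and 27.2 FPKM in sham replicates 1 to 5. Only sham replicate 2 fell within the IRI range, and the groups otherwise stood apart. Bnip3l fell by 0.57 ± 0.09 on the log2 scale (edgeR adjusted p = 9.38e-05), or by 0.32 with library totals (edgeR adjusted p = 0.00939). Its processed copy Bnip3l-ps had 406 counts in IRI and 353 in sham, against 6900 in IRI and 8441 in sham for Bnip3l, and how many reads of Bnip3l match the copy equally well was not measured. Fundc1, an outer membrane receptor that responds to hypoxia, had 11.5, 10.2, 12.5, 12.9 and 12.1 FPKM in IRI replicates 1 to 5, against 14.9, 13.3, 15.3, 14.6 and 14.0 FPKM in sham replicates 1 to 5. The groups did not overlap, though less than 1 FPKM lay between them. Fundc1 fell by 0.54 ± 0.08 on the log2 scale (edgeR adjusted p = 0.000126), or by 0.29 with library totals (edgeR adjusted p = 0.0122).

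Among the fusion genes, Opa1 was lower under both scalings. Its level was 11.79, 10.91, 12.88, 11.13 and 12.13 FPKM in IRI replicates 1 to 5, against 15.18, 15.01, 15.95, 13.19 and 12.57 FPKM in sham replicates 1 to 5. IRI replicate 3 lay above sham replicate 5, and no other pair of libraries crossed. Opa1 fell by 0.54 ± 0.09 on the log2 scale (edgeR adjusted p = 0.000273), or by 0.29 with library totals (edgeR adjusted p = 0.0131).

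The mitofusins were lower with TMM factors but were not called with library totals. Mfn1 had 17.54, 20.25, 17.31, 16.51 and 17.04 FPKM in IRI replicates 1 to 5, against 18.92, 19.46, 19.78, 19.12 and 20.48 FPKM in sham replicates 1 to 5. IRI replicate 2 lay among the sham libraries, and the other IRI libraries lay below them. Mfn1 fell by 0.39 ± 0.08 on the log2 scale (edgeR adjusted p = 0.00126), and its fold change with library totals was -0.14 (edgeR adjusted p = 0.137). Mfn2, which also tethers mitochondria to the endoplasmic reticulum, had 19.0, 19.1, 20.9, 21.5 and 23.6 FPKM in IRI replicates 1 to 5, against 24.5, 23.3, 24.0, 22.9 and 17.9 FPKM in sham replicates 1 to 5. The groups overlapped, since sham replicate 5 was the lowest of the 10 libraries and IRI replicate 5 also lay above sham replicates 2 and 4. The fold change of Mfn2 was -0.37 ± 0.10 with TMM factors (edgeR adjusted p = 0.00521) and -0.11 with library totals (edgeR adjusted p = 0.351).

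Of the fission genes, Dnm1l was the 1 gene of the set called higher with TMM factors. It had 23.8, 25.8, 26.8, 25.8 and 26.4 FPKM in IRI replicates 1 to 5, against 17.5, 20.4, 18.2, 17.3 and 20.5 FPKM in sham replicates 1 to 5. Every IRI library lay above every sham library on the FPKM scale. Dnm1l rose by 0.20 ± 0.08 on the log2 scale (edgeR adjusted p = 0.0409), and by 0.46 with library totals (edgeR adjusted p = 0.000326). The call with TMM factors was close to the threshold and was lost without sham replicate 1 (0.175, edgeR adjusted p = 0.107), 3 (0.175, edgeR adjusted p = 0.0921) or 4 (0.171, edgeR adjusted p = 0.110).

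Mff, the outer membrane adaptor that recruits DRP1, had 10.43, 11.64, 10.53, 13.12 and 12.02 FPKM in IRI replicates 1 to 5, against 10.10, 8.62, 9.97, 9.09 and 9.20 FPKM in sham replicates 1 to 5. The groups did not overlap on the FPKM scale, but the gap between them was narrow. Its fold change was 0.04 ± 0.08 on the log2 scale with TMM factors (edgeR adjusted p = 0.626) and 0.30 with library totals (edgeR adjusted p = 0.0095), the same as the median of all tested genes under that scaling (0.30). Fis1 was the most variable gene of the set, with 40.7, 74.1, 60.0, 70.2 and 62.7 FPKM in IRI replicates 1 to 5, against 66.3, 61.3, 60.0, 80.8 and 86.2 FPKM in sham replicates 1 to 5. IRI replicate 1 was the lowest library, and the other IRI libraries lay within the sham range. Without IRI replicate 1, the library with the most mitochondrial ribosomal RNA, its fold change was -0.34 (edgeR adjusted p = 0.0334). The fold change of Fis1 was -0.47 ± 0.15 with TMM factors (edgeR adjusted p = 0.0138) and -0.20 with library totals (edgeR adjusted p = 0.272).

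**Figure D2:**
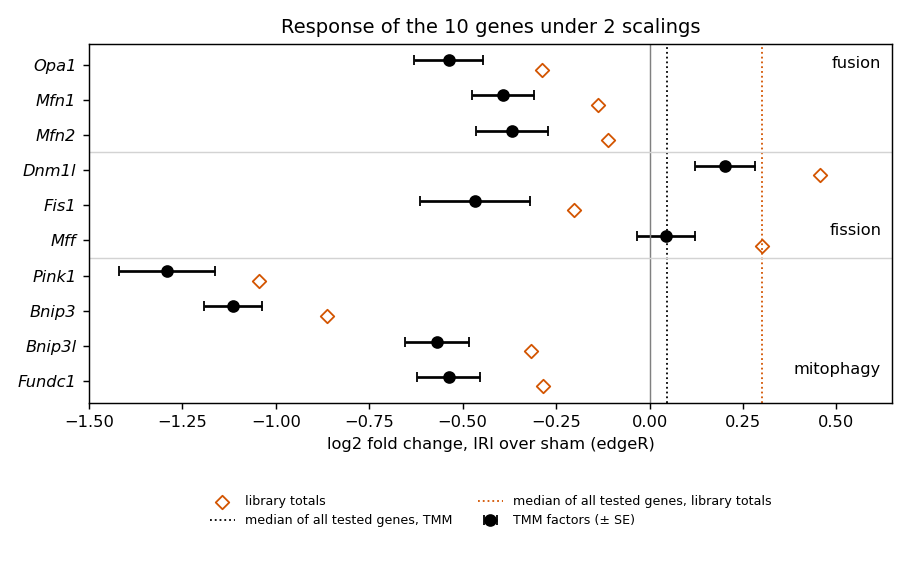
Log2 fold change of each gene, IRI over sham (horizontal axis), by edgeR with TMM factors (filled points, ± SE) and with library totals (open diamonds). Dotted lines mark the medians of all 13324 tested genes, 0.05 and 0.30, and Pink1 and Bnip3 lie far to the left of both.

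The order of levels, per length, differed between the groups at its top. In IRI, Fis1 (61.5 ± 12.9 FPKM) and Pink1 (51.7 ± 5.53 FPKM) led and overlapped, followed by Bnip3 (31.1 ± 1.92 FPKM) and Dnm1l (25.7 ± 1.18 FPKM; SD, n = 5). In sham, Pink1 led with 107 ± 13.7 FPKM, followed by Fis1 (70.9 ± 11.9 FPKM), Bnip3 (56.7 ± 1.51 FPKM) and Bnip3l (27.7 ± 2.67 FPKM; SD, n = 5), and among the first 4 no neighbouring ranges overlapped. Dnm1l stood in the fourth place in IRI and in the seventh in sham. In each group Bnip3l overlapped with Mfn2, and Mfn2 with Mfn1. The next gap lay between Mfn1 and Fundc1 in IRI and between Dnm1l and Fundc1 in sham. Fundc1, Opa1 and Mff lay lowest, at 11.5 to 11.8 FPKM in IRI and 9.40 to 14.4 FPKM in sham.

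Ratios of genes within a library do not depend on how libraries are scaled, so 4 pairs were compared. The test was an exact permutation test, two-sided, with 252 ways to assign the libraries and a smallest possible p of 0.00794. Its p-values were adjusted over the 4 pairs. The pairs were chosen with earlier results of these data known, and the p-values do not cover that choice. Opa1 over Dnm1l, the GTPases of inner membrane fusion and of fission, shifted towards Dnm1l in IRI. The FPKM ratio was 0.496, 0.422, 0.480, 0.431 and 0.459 in IRI replicates 1 to 5, against 0.867, 0.735, 0.876, 0.763 and 0.613 in sham replicates 1 to 5. The groups did not overlap. The log2 count ratio differed by -0.74 between IRI and sham (adjusted exact permutation p = 0.0159), and by -0.82 to -0.69 with each library left out in turn.

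Bnip3 over Bnip3l also shifted. The FPKM ratio was 1.46, 1.45, 1.62, 1.28 and 1.25 in IRI replicates 1 to 5, against 1.93, 2.33, 1.93, 2.03 and 2.09 in sham replicates 1 to 5. Bnip3 remained the more abundant of the paralogues per length in every library, by less in IRI than in sham. The log2 count ratio differed by -0.55 between IRI and sham (adjusted exact permutation p = 0.0159). Mff over Fis1 was higher in IRI by 0.51 on the log2 scale (adjusted exact permutation p = 0.0212), with FPKM ratios of 0.157 to 0.256 in IRI and 0.107 to 0.166 in sham, which overlapped. IRI replicate 1, with the lowest Fis1, gave the highest of these ratios, and without it the difference was 0.41. Mfn1 over Mfn2 had FPKM ratios of 0.724 to 1.06 in IRI and 0.773 to 1.15 in sham. Its log2 count ratio differed by -0.03 (adjusted exact permutation p = 0.810), well within the SD of 0.22 in each group, and the sign changed without IRI replicate 4, IRI replicate 5 or sham replicate 5.

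**Figure D3:**
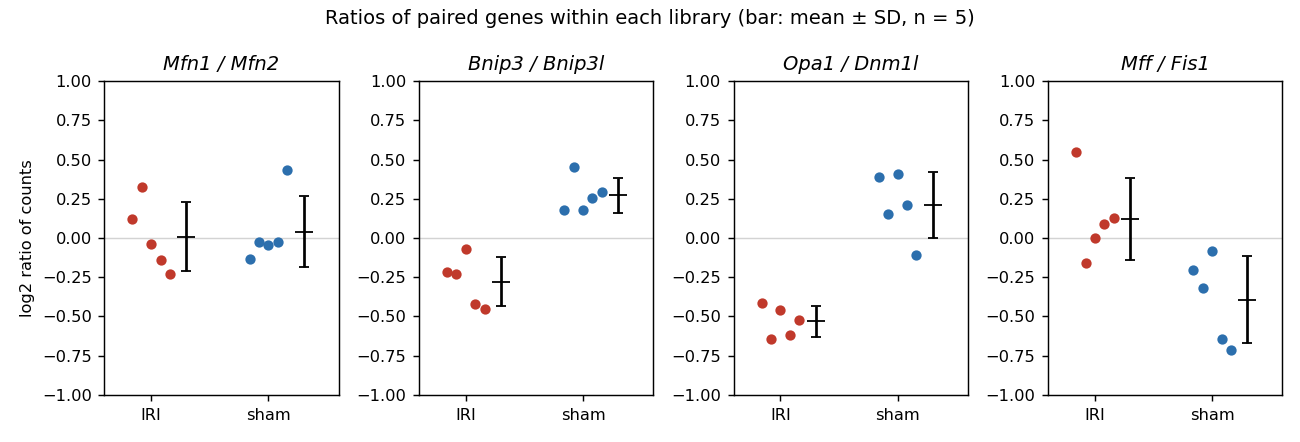
Log2 ratio of counts of 4 gene pairs within each library (vertical axis) for 5 IRI and 5 sham libraries, with bars for mean ± SD. Opa1 over Dnm1l and Bnip3 over Bnip3l lie below sham in every IRI library, Mff over Fis1 averages 0.12 in IRI and -0.39 in sham, and Mfn1 over Mfn2 overlaps.

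The genes were next set against 23 other nuclear genes of mitochondrial proteins, as log2 differences within each library. Relative to the mean of these 23, Pink1 was lower in IRI by 0.77 and Bnip3 by 0.59, while Dnm1l was higher by 0.73 and Mff by 0.57 (adjusted exact permutation p = 0.0198 for each, over 10 genes). The other 6 genes were not called, with Opa1 at -0.01, Bnip3l at -0.04, Fundc1 at -0.01, Fis1 at 0.06, Mfn1 at 0.13 and Mfn2 at 0.17 (adjusted exact permutation p from 0.0635 to 0.937). The 23 genes did not move as one. Of 11 import, chaperone and channel genes, such as Tomm20 and Vdac1, 2 were lower and 1 higher by edgeR (median log2 fold change -0.05), and of 12 respiratory chain and TCA cycle genes, such as Sdhb and Ndufs1, 11 were lower and 0 higher (median -0.88). These calls used TMM factors, with which 32.4% of all tested genes were lower and 34.5% higher.

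These portions were separated after the values had been seen, so the values against them carry no test. Against the 11 import, chaperone and channel genes alone, the differences were -1.14 for Pink1, -0.96 for Bnip3, -0.41 for Bnip3l, -0.39 for Fundc1, -0.38 for Opa1, -0.32 for Fis1, -0.24 for Mfn1 and -0.21 for Mfn2, with 0.36 for Dnm1l and 0.20 for Mff. Against the 12 respiratory chain and TCA genes alone, Pink1 was at -0.42 and Bnip3 at -0.25, and the other 8 genes were between 0.30 for Bnip3l and 1.08 for Dnm1l. Pink1 and Bnip3 were thus below 0, and Dnm1l and Mff above 0, against the whole list and against each portion, while the remaining 6 genes changed sign with the portion used. The whole list is made up of both portions, so its sign follows wherever they share one. Mff was close to 0 against the import, chaperone and channel genes (0.20), and its own fold change with TMM factors was 0.04 (edgeR adjusted p = 0.626).

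**Figure D4:**
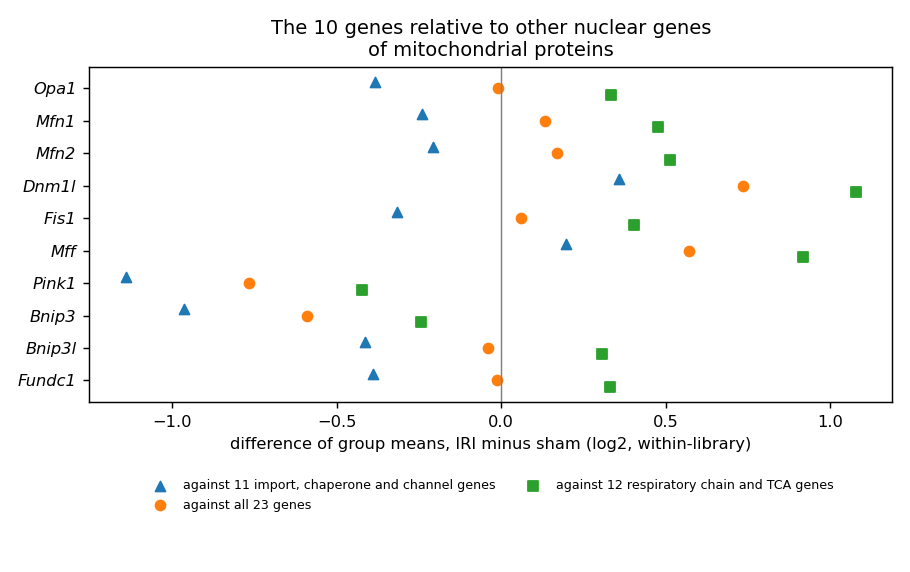
Difference of group means, IRI minus sham, of each gene relative to 11 import, chaperone and channel genes (triangles), to all 23 genes (circles) or to 12 respiratory chain and TCA genes (squares), in log2 units. Pink1 and Bnip3 lie left of 0 and Dnm1l and Mff right of 0 for every set of genes.

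The wider pathway was described with 6 lists of 74 further genes, of which 70 passed the filter. With TMM factors 12 were higher (34.5% of all tested genes), 38 lower (32.4% of all tested genes) and 20 not called. The median of the 70 log2 fold changes was -0.31. With library totals 19 of the 70 were higher (47.4% of all tested genes) and 27 lower (23.6% of all tested genes). Of 17 genes whose products cut OPA1 or shape cristae, 14 were lower, 1 higher and 2 not called (median -0.80). Apoo (-1.43) and 2410015M20Rik (-1.09), which encode subunits of the cristae junction complex MICOS, and Phb (-1.16), the prohibitin scaffold that stabilises OPA1, were lowest. The 1 higher gene was the inner membrane protease Parl (0.20, edgeR adjusted p = 0.0351), which cleaves imported PINK1. It was no longer called when sham replicate 1, 2, 3, 4 or 5 or IRI replicate 4 was left out.

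Helpers of fusion and fission were mixed. Of 16 tested, 5 were higher (34.5% of all tested genes), 5 lower (32.4%) and 6 not called (median -0.03). Inf2, a formin that builds actin at sites of fission, rose most of the 16 tested, with a log2 fold change of 2.18 ± 0.11 (edgeR adjusted p = 3.50e-08). It had 9.47 ± 0.874 FPKM in IRI and 1.77 ± 0.172 FPKM in sham (SD, n = 5). Senp5 (0.59), a SUMO protease that acts on DRP1, and the mitochondrial phosphatase Pgam5 (0.38) were also higher. Mtfp1 (-1.82), an inner membrane protein that promotes fission, Mtfr1 (-0.999) and Akap1 (-0.90), which anchors protein kinase A at the outer membrane, fell. Gdap1, Mtfr2 and Pld6 did not pass the filter and were not tested. Mtfr2 had 0.65 to 2.99 FPKM in IRI and 0.13 to 0.37 FPKM in sham. Pld6 had 0.03 to 0.14 FPKM in IRI and 0.17 to 0.49 FPKM in sham, and Gdap1 had at most 0.01 FPKM. With library totals 8 of the 16 were higher (47.4% of all tested genes) and 4 lower (23.6% of all tested genes).

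Among 16 tested genes of other mitophagy factors, 3 were higher (34.5% of all tested genes), 7 lower (32.4%) and 6 not called (median -0.12). With library totals 5 were higher (47.4% of all tested genes) and 4 lower (23.6%), the latter near the share over all genes. The autophagy receptors Optn (0.90 ± 0.10, edgeR adjusted p = 8.16e-06) and Sqstm1 (0.48 ± 0.14, edgeR adjusted p = 0.00870), and Tbk1 (0.56 ± 0.12, edgeR adjusted p = 0.00142), the kinase that phosphorylates optineurin, rose. Sqstm1 had 302 ± 54.8 FPKM in IRI and 183 ± 6.97 FPKM in sham (SD, n = 5). Nlrx1 (-0.96), Tomm7 (-0.90), a subunit of the outer membrane translocase needed to retain PINK1, and the receptor Nbr1 (-0.63) fell.

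The counts of the next 3 lists stand beside 32.4% of all tested genes lower and 34.5% higher with TMM factors. With library totals these shares were 23.6% and 47.4%. Of the 5 ATG8 genes, whose products bind mitophagy receptors on the autophagosome, 3 were lower, 0 higher and 2 not called with TMM factors. With library totals 2 were lower and 1 higher. Gabarapl1 fell most, with 139 ± 14.4 FPKM in IRI and 345 ± 26.3 FPKM in sham (SD, n = 5) and a log2 fold change of -1.55 ± 0.12 (edgeR adjusted p = 7.79e-07). Gabarap (-0.53) and Gabarapl2 (-0.28) were also lower, and Gabarapl2 was not called with library totals (-0.03, edgeR adjusted p = 0.758). Among 5 genes of mitochondrial transport, 2 were lower, 1 higher and 2 not called (median -0.18), or 1 lower and 1 higher with library totals. Of 11 biogenesis genes 7 were lower, 2 higher and 2 not called (median -0.40), or 4 lower and 3 higher with library totals (23.6% and 47.4% of all tested genes). Tfb1m (-1.41), the nuclear receptor gene Esrra (-0.94) and the mitochondrial helicase gene Twnk (-0.70) fell, and Nrf1 (0.41, edgeR adjusted p = 0.00620) and the mitochondrial DNA polymerase gene Polg (0.19, edgeR adjusted p = 0.0479) rose. Without IRI replicate 1 or 2, or sham replicate 1, 3, 4 or 5, only 1 gene of this list was called higher.

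**Figure D5:**
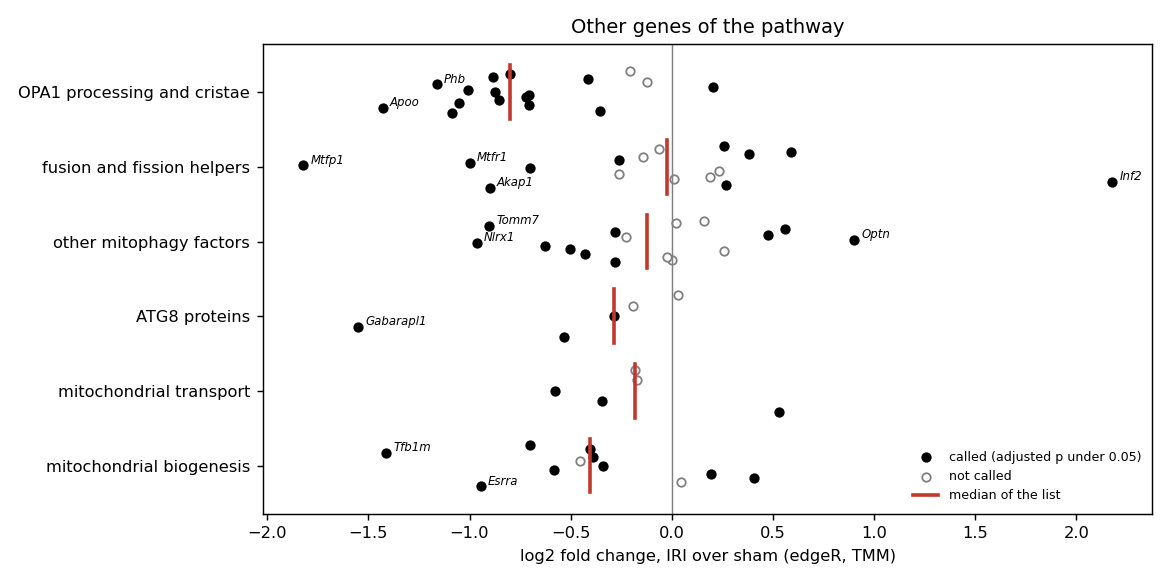
Log2 fold change, IRI over sham (horizontal axis, edgeR with TMM factors), of the 70 tested genes of 6 lists, with filled points for called and open points for uncalled genes and a red line at each list's median. Genes of OPA1 processing and cristae have the lowest median (-0.80), and Inf2 lies furthest to the right (2.18).

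By root mean square difference of centred log2 levels over the 10 libraries, among 7724 genes with a mean of at least 5 FPKM, the genes most like Pink1 were Idh2 (0.11), a mitochondrial isocitrate dehydrogenase, Ctsh (0.11), a lysosomal cathepsin, and Sdhb (0.11), a subunit of complex II. Their log2 fold changes were -1.40, -1.18 and -1.27. The genes most like Bnip3 were Acad8 (0.07), an acyl-CoA dehydrogenase of valine breakdown, Tmem237 (0.08) and Cetn2 (0.08), a centrin. Their log2 fold changes were -1.12, -1.12 and -1.11. The distance takes in the difference between IRI and sham, so the similar fold changes follow from how these genes were picked.

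The share of all counts in the 13 mitochondrially encoded messenger RNAs was 10.1% ± 0.156 in IRI and 10.6% ± 0.623 in sham (SD, n = 5, exact permutation p = 0.0952). The difference was -0.52 percentage points. It was -0.31 without sham replicate 2 (exact permutation p = 0.159), -0.66 without sham replicate 1 (exact permutation p = 0.0238) and -0.65 without sham replicate 4 (exact permutation p = 0.0476). The 13 had very uneven levels, with sham means from 5.24 FPKM (mt-Nd4l) to 23400 FPKM (mt-Co1), so the share rests on the highest of them. With TMM factors 7 of the 13 were lower (32.4% of all tested genes), 0 higher and 6 not called (median -0.48). With library totals only mt-Nd4 was called (-0.325, edgeR adjusted p = 0.025).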

How the data were processed

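The authors deposited whole-number counts and FPKM of every gene in 10 kidney libraries made from poly(A) RNA, per the labels' protocols. The submitters' processing notes list GRCm39 as the build, with HTSeq 0.6.1, HISAT2 2.0.1 and cutadapt 1.9.1 as tools, and no source used here gives the strand setting. Recomputed from the deposited counts, exonic lengths and library totals, FPKM matched the deposited values to 0.005 units or 0.1% in 100% of cases. Symbols came from a table of gene names by identifier (52083 of 55359 genes).

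The filter kept the 13324 genes that reached 1 FPKM in 5 libraries, and these were tested on counts with edgeR 4.0.16 (R 4.3.3), using TMM factors and the quasi-likelihood test, with Benjamini-Hochberg adjustment over all tested genes. A gene was called where its adjusted p was under 0.05. Each standard error was recovered from the F statistic. The code was tested on simulated data. Ratios within libraries used counts plus 0.5. The 10 genes, the lists and the tests were chosen with earlier results of these data known. Besides the 10 genes, the text names up to 3 called genes per direction and list, and the 3 genes nearest in pattern to Pink1 and Bnip3. A few genes that this rule covers are not reported here. Genes that overlap the 10 on the opposite strand had at most 89 counts over a group. Copies were sought with BLAST 2.17.0. Precision is given as the spread between libraries, which includes counting error. Alternatives were DESeq2 1.42.0, limma 3.58.1 on log2(FPKM + 1) and log2(FPKM + 0.1), other scalings and filters, a block for the replicate number, an adjusted p of 0.01 and leaving out each library.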

Additional observations from a re-analysis of the deposited data

Results flagged for a closer look

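In groups of 5 libraries, 4 values stood apart from the rest of their group by Dixon's criterion (gap over range above 0.71), of 50 groups examined, and chance flags about 1 group in 20. Mfn1 was at 20.2 FPKM in IRI replicate 2, above the other IRI libraries. Mfn2 was at 17.9 FPKM in sham replicate 5, below the other sham libraries, and the log2 count ratio of Mfn1 over Mfn2 was 0.43 in the same library, above the others. The log2 level of Bnip3 relative to the 23 mitochondrial genes was -1.52 in IRI replicate 4, above the other IRI libraries and below every sham library.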

How the results depend on the processing

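For the 10 genes, 170 of 190 combinations of gene and alternative kept the direction and the side of the threshold, 17 lost the call, 3 gained it and 0 changed direction. Under library totals, limma on log2(FPKM + 1) and limma on log2(FPKM + 0.1), Mfn1, Mfn2 and Fis1 were no longer called and Mff was, which gave 2 genes higher and 5 lower in each. Genes called higher numbered 0 with DESeq2 size factors in edgeR, with no filter, with the replicate block (edgeR adjusted p of Dnm1l 0.0664, 0.0945 and 0.0995) and at an adjusted p under 0.01, each time because Dnm1l lost its call, and 0 to 1 with each library left out. Wider pathway genes called higher numbered 19 of 70 under library totals and under each limma setting, against 12, and 9 to 14 with each library left out. Of all 13324 tested genes, 6322 (47.4%) were higher and 3139 (23.6%) lower under library totals, against 4599 (34.5%) and 4320 (32.4%) with TMM factors. The limma settings, in the order above, gave 6296 and 6281 genes higher and 3202 and 3194 lower. Library totals made 66.8% of all calls higher, against 51.6% with TMM factors.

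The labels number the libraries 1 to 5 in each group without saying what a number shares. Same-numbered libraries had deviations from their group means correlated at 0.042, -0.107, -0.221, 0.018 and -0.109. No IRI library correlated best with its own number. These correlations were not tested and cannot say what a number shares. The replicate block gave 4221 genes higher and 4097 lower, against 4599 and 4320. A sign-flip test over the 5 numbered pairs, whose smallest p is 0.0625, gave that p for Bnip3 over Bnip3l (-0.55), Opa1 over Dnm1l (-0.74) and Mff over Fis1 (0.51). With a library left out, Mfn1 over Mfn2 ranged from -0.114 to 0.063, and the mitochondrially encoded share differed by -0.66 to -0.31 points.

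Relative to the 23 mitochondrial genes, members near 0 changed sign. With the median of the list Opa1 was at 0.10, Bnip3l at 0.069 and Fundc1 at 0.094, and against respiratory chain and TCA genes alone at 0.34, 0.30 and 0.33. Against import, chaperone and channel genes alone, a choice made after seeing the data, Mfn1 was at -0.24, Mfn2 at -0.21 and Fis1 at -0.32. With a library left out, Opa1 ranged from -0.058 to 0.046, Fis1 from -0.02 to 0.21, Bnip3l from -0.108 to 0.017 and Fundc1 from -0.070 to 0.058. The cause was not tested.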
